A study of Mus musculus with 8 samples.

Results

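The complement system was examined across whole knee joints of mice: its recognition molecules, its cleavable components, its receptors and the proteins that hold it in check. The genes were taken from a fixed list of 34 names by an exact match of the gene name, and 32 of them had a row among the 20681 genes of the deposited table. The name C1s, given beside C1s1, and Hc, the gene of component C5, had no row in the table used here. RNA was sequenced from 8 samples of mouse knee joint, with 4 in the control group and 4 in the knockout group. By the labels both groups come from Acan-Cre;Loxl2 fl/fl mice, in which Cre recombinase under the aggrecan gene deletes the floxed Loxl2 gene in cells that make aggrecan, mainly chondrocytes. The control mice were vehicle-treated, and what the other mice received is not given in the labels. All library names carry DMM, commonly the abbreviation of surgical destabilisation of the medial meniscus, and they write LOXL2wt for the control and LOXL2ko for the knockout joints. The labels give no age, sex, litter or time after surgery and do not number the animals, so p-values measure the spread between these samples. Most cells of a whole joint do not use the aggrecan promoter, so by this design the deletion would reach only part of the tissue sampled. The deletion itself was not measured here.

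Complement is a cascade of blood and tissue proteins. The classical route starts when C1q binds immune complexes, dying cells or exposed matrix and switches on its partner proteases C1r and C1s; the lectin route uses collectins and MASP proteases; the alternative route amplifies through factors B and D and properdin. All routes meet at C3, whose fragments tag surfaces and signal through receptors, and end in the membrane attack complex of C5 to C9. Host cells are shielded by inhibitors such as CD55, CD46, CD59, factor I and C1 inhibitor. The liver makes most circulating complement, while macrophages make C1q and fibroblasts and other stromal cells make C1r, C1s, C3 and several inhibitors locally, and complement proteins are found in injured and osteoarthritic joints.

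Libraries held 13991000 to 17411617 reads in genes. Values are normalised read counts, that is, reads divided by a size factor of the library, and differences are the log2 difference of knockout minus control on the log2(value + 1) scale, by label. A gene was tested if it reached a value of 10 in at least 4 libraries, and it passed at a limma adjusted p under 0.05 over all 14949 genes tested. The targeted gene went against its label: Loxl2 read 282, 349, 1135 and 311 in the control joints and 893, 1468, 960.3 and 1518 in the joints labelled knockout, a difference of 1.44 (exact permutation p = 0.0857, limma adjusted p = 0.0294). Its limma call was lost with edgeR (1.23, edgeR adjusted p = 0.0669) and DESeq2 (1.23, DESeq2 adjusted p = 0.0659), and without control replicate 1 (limma adjusted p = 0.0666), 2 (0.0798) or 4 (0.0767) or without knockout replicate 2 (0.0745) or 4 (0.0849). Knockout joints and control joints below are therefore those so labelled, and every direction is that of the labels. Values are given in the order of replicates 1 to 4.

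Complement genes were mostly higher in the joints labelled knockout, and the rises lay in C1, Masp1, Colec12, C2, C3, the C3a receptor and C1 inhibitor. Of the 32 genes with a row, 25 were abundant enough to test, and 12 passed: 11 rose and 1 fell. The 11 that rose were C1qa, C1qb, C1qc, C1ra, C1s1, Masp1, Colec12, C2, C3, C3ar1 and Serping1, and the one that fell was C1qbp. That is 48% of those tested, against 23.2% of all genes tested; 44% were called higher against a background of 11.6%, and 4% lower against 11.6%. The median log2 difference of the 25 was 0.79, beside 0.00 over all genes tested. Without overlap between the groups were 7 of the 25 on the higher side (28%, background 11.7%) and 0 on the lower side (background 13.4%). The count called was 12 with edgeR and 13 with DESeq2, but 6 without knockout replicate 4 and 7 without control replicate 2 or knockout replicate 2. With each library scaled without the 50 highest genes and without muscle, erythroid and neutrophil markers, the median of all genes moved to 0.15 and 2720 of 3497 called genes were higher, against 1732 of 3461; 13 complement genes were then called, all higher. The plot of differences by role sets the genes side by side.

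**Figure D1:**
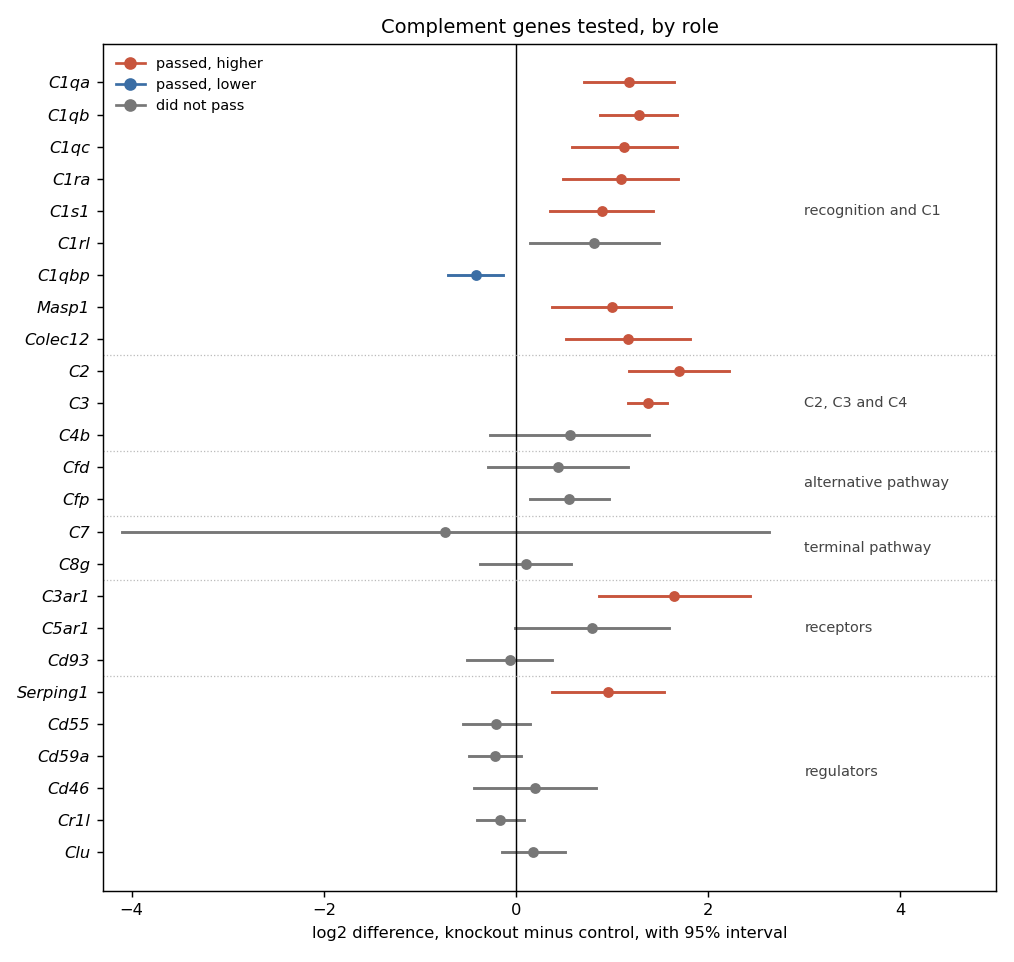
Log2 difference between knockout and control joints (horizontal axis) for the 25 complement genes tested, grouped by role, with the moderated 95% interval of each gene alone, not adjusted over genes. The 11 red genes rose and C1qbp, in blue, fell, while the grey genes did not pass, among them 5 of the 6 regulators.

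Several marker lists for the tissues of a joint moved with these genes. Beside the counts below, 11.6% of all genes tested were called higher and 11.6% lower. The 12 macrophage markers, none of them a complement gene, summed to 2111 to 5290.3 in the control libraries and 6904 to 11459 in those labelled knockout, and 8 of the 12 rose, Cd14 (1.17) and Cd68 (1.71) with the smallest p. Lyz2 gave 63% of that sum. The 10 fibroblast markers summed to 69395 to 194730 against 214150 to 369190, with 7 risen, Postn (3.42) and Pdgfra (1.31) foremost. The list with the highest median difference, 2.81, was that of osteoclasts, bone-resorbing cells of the myeloid lineage that share some genes with macrophages. Of its 8 genes 7 rose, among them Ctsk (2.53) and Oscar (3.47). Its sum was 14065, 1868, 2535 and 2013 in control and 39329, 10270, 17640 and 29061 in knockout joints, so that control replicate 1 lay above knockout replicate 2. Skeletal muscle markers were lower in the libraries labelled knockout, with sums of 1938300 to 2092300 in control and 1017800 to 1368300 in knockout joints and 4 of 12 genes fallen. Chondrocyte markers had 1 of 10 genes risen, Hapln1 (1.28), and sums of 15113 to 37753 and 30860 to 55260. None of the tested neutrophil (8), erythroid (8) or B cell (5) markers passed, with median differences of -0.64, -1.93 and -0.57. The part of these cell types in the complement results was not tested. In a bulk sample, more cells of a type and more RNA per cell cannot be told apart. Of 10 hepatocyte markers, 4 had a row; Alb, Apoa1, Ttr, Fgb, Ahsg and Tat had none, and of the 3 tested none passed, with Hp giving 69% of a sum of 176 to 638 in control and 268 to 595 in knockout joints.

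C1q is the recognition molecule of the classical route, assembled from A, B and C chains that are encoded side by side on chromosome 4 and each carry a collagen-like tail. All 3 chains rose, by 1.13 to 1.28 on the log2 scale, and none of their knockout libraries overlapped a control library. C1qa (mm10 chr4:136895917-136898803, minus strand) had normalised read counts of 532, 377, 692 and 765 in the control joints and 1119, 1123, 1452 and 1525 in the knockout joints. The lowest knockout joint thus lay well above the highest control joint. The means were 591 ± 173 and 1305 ± 214 (SD, n = 4), a log2 difference of 1.18 ± 0.21 (SE, limma adjusted p = 0.00707). The exact permutation p was 0.0286, the smallest that 70 assignments allow.

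C1qb (chr4:136880129-136886187, minus strand) was 348, 307, 523 and 531 in control and 917, 1008, 1129.9 and 988 in knockout joints. It had the tightest knockout group of the 3 chains, with means of 427 ± 117 and 1011 ± 88.7 (SD, n = 4), a log2 difference of 1.28 ± 0.18 (SE, limma adjusted p = 0.00399). C1qc (chr4:136889804-136893065, minus strand) was 415, 293, 599 and 701 in control and 839.7, 1029.7, 1126 and 1204 in knockout joints, a difference of 1.13 ± 0.25 (SE, limma adjusted p = 0.0128). In each chain control replicate 2 was the lowest control library. All 3 calls held in each of the 18 alternative settings run. The chains kept their ratio while their level changed: per kb of exons, C1qa over C1qc was 2.02 to 2.39 in control and 2.02 to 2.47 in knockout joints, and C1qa over C1qb 1.28 to 1.6 and 1.17 to 1.62.

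The C1qb and C1qc promoters are printed because these genes stand 1 behind the other and moved together, and that of C3 because it had the smallest p among the complement genes. Sequences run 5′ to 3′ on the gene's strand, from 250 bases before to 50 after the start annotated by RefSeq on GRCm38.p6, the assembly of mm10. Of the 32 genes with a row, 22 had an entry, and C1qa was not among them. Capitals mark letters searched for on both strands, with overlaps allowed: GAGGAA, the core of sites of ETS factors such as the myeloid factor PU.1, TTGCNNAA, a C/EBP type site, and TATAAA. These occur in 28.3%, 10.8% and 13.6% of the 32851 promoter windows of the same length. A repeat of the interferon regulatory factor type, found in 3.44% of windows, was searched too and is in none of the 3.
C1qb (chr4:136886151-136886450, minus strand): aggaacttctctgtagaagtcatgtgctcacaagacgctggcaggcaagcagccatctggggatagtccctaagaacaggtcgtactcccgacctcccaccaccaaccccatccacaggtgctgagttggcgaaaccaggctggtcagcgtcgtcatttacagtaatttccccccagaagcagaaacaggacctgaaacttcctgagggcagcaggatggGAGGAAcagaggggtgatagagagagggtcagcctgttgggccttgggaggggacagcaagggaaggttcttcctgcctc
C1qc (chr4:136892865-136893164, minus strand): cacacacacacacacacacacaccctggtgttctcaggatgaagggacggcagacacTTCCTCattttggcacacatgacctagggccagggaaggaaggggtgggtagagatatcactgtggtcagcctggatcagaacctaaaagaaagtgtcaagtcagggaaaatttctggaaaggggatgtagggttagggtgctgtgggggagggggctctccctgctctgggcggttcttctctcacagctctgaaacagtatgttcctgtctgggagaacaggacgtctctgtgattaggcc
C3 (chr17:57228087-57228386, minus strand): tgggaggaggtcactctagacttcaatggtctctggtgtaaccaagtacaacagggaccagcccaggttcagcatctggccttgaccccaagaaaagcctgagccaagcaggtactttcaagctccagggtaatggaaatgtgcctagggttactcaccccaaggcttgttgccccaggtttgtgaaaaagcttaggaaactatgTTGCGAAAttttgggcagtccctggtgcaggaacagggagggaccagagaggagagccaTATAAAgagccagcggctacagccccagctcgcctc
The C1qb window holds 1 match to the ETS core, at position -30 from the start, and the C1qc window 1 on the opposite strand, at position -193. The C3 window holds a C/EBP type match at position -45 and TATAAA at position 15 of the transcript. A match describes letters only.

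Set against the macrophage markers of the same library, C1q did not separate the groups. This ratio, like the other marker ratios here, was chosen after values had been seen. The 3 chains summed to 38.3, 46.2, 34.3 and 42.6 per 100 macrophage marker reads in control joints and to 33.9, 32.2, 53.7 and 32.4 in knockout joints. Knockout replicate 3 was the highest of the 8, and the other knockout joints lay under the lowest control joint. This order depends on Lyz2, which gave 63% of the marker sum. Lyz2 was 1530, 1461, 4053 and 3031 in control and 4017, 7302, 3973 and 7476 in knockout joints. Whether the macrophage share accounts for the C1q difference was not tested.

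C1r and C1s are the serine proteases that C1q carries. Both rose, but knockout replicate 3 lay inside the control range. C1ra (chr6:124512405-124523443, plus strand) was 239, 146, 306 and 176 in control and 496, 479.8, 281 and 589 in knockout joints, a log2 difference of 1.09 ± 0.27 (SE, limma adjusted p = 0.0192, exact permutation p = 0.0571). C1s1 (chr6:124530345-124542359, minus strand) was 464, 372, 648 and 308 in control and 852, 976, 546 and 899.6 in knockout joints, a difference of 0.89 ± 0.24 (SE, limma adjusted p = 0.0268, exact permutation p = 0.0571). The overlap in both genes comes from 1 knockout joint, replicate 3, under 1 control joint, also replicate 3. C1ra lost its limma call without control replicate 2 (adjusted p = 0.0531) or 4 (0.0517) and without knockout replicate 4 (0.0601). C1s1 lost it without control replicate 2 (0.0743) or 4 (0.066) and without knockout replicate 1 (0.0615), 2 (0.0706) or 4 (0.0764). Their near copies C1rb and C1s2 held 23 and 30 reads over all libraries, and reads may be shared between copies.

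C1rl, a C1r-like protease next to C1ra, was low, with 17.3 to 31.8 in control and 26.1 to 54.7 in knockout joints (0.81 ± 0.30, SE, limma adjusted p = 0.0758). It passed without control replicate 3 (0.998, limma adjusted p = 0.0444) and without knockout replicate 3 (0.99, 0.0404). C1qbp (chr11:70977836-70983026, minus strand) encodes a protein that binds the globular heads of C1q but resides mainly in mitochondria. It was 1062, 1425, 1036 and 1284 in control and 858, 869.8, 1068 and 786 in knockout joints, a fall of -0.42 ± 0.13 (SE, limma adjusted p = 0.0428, exact permutation p = 0.0857). Its groups overlapped, and the call was lost without control replicate 2 (-0.33, limma adjusted p = 0.113) or 4 (0.103) and without knockout replicate 1 (0.0894), 2 (0.0899) or 4 (0.117), and with quantile normalisation (-0.32, 0.0929).

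**Figure D2:**
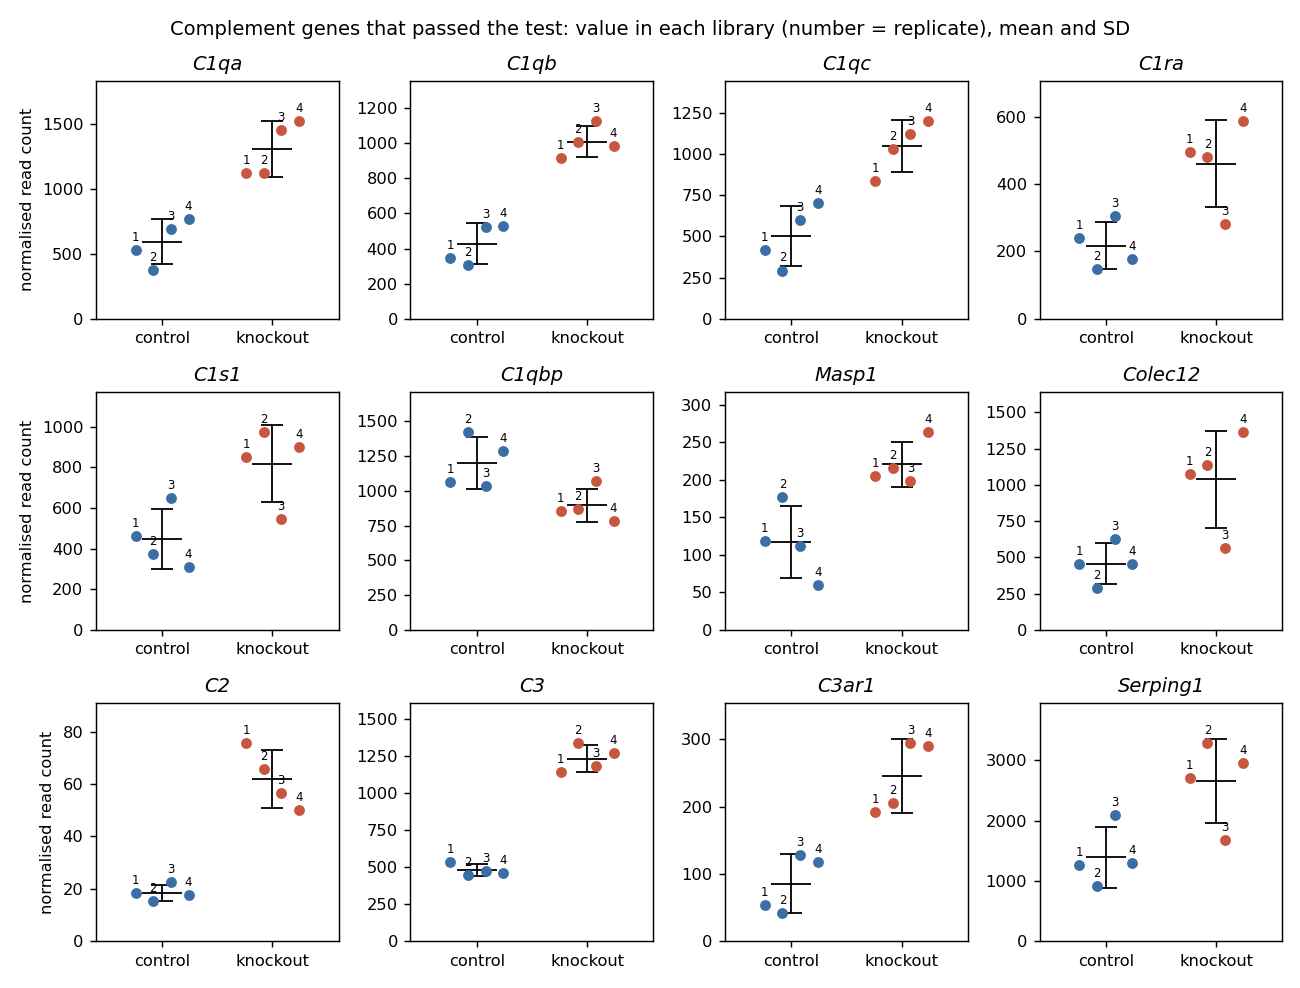
Normalised read count (vertical axis, from 0) of the 12 complement genes that passed the test, in each control and knockout library, with the replicate number beside each point and the mean and SD in black. C3 shows the tightest groups, 444 to 535 against 1141 to 1341, while in C1ra, C1s1, Colec12 and Serping1 knockout replicate 3 sits within the control range.

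Among the genes of MASP proteases and collectins, 2 rose. Masp1 (chr16:23449417-23520815, minus strand) encodes the protease that starts this route and, by splicing, MASP-3, which matures factor D. It was 119, 178, 112 and 60.2 in control and 204, 216, 198 and 264 in knockout joints, without overlap (0.995 ± 0.28, SE, limma adjusted p = 0.0299, exact permutation p = 0.0286). Its call was lost without knockout replicate 1 (limma adjusted p = 0.0562), 2 (0.0637) or 4 (0.0873) and with quantile normalisation (0.0563). Colec12, on chromosome 18, encodes a scavenger-receptor collectin with a collagen-like stalk. It was 454, 286, 629 and 457 in control and 1077, 1138, 567 and 1366 in knockout joints, so that knockout replicate 3 again fell among the controls (1.17 ± 0.29, SE, limma adjusted p = 0.0199). The call of Colec12 was lost without control replicate 2 (limma adjusted p = 0.052) and without knockout replicate 2 (0.0524) or 4 (0.0615). Masp2, the C4- and C2-cleaving protease, and Colec11, a soluble collectin, stayed below the test's filter with at most 9.08 and 18 in any library.

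C2, C3 and C4 form the enzymes on which the classical and lectin routes converge. C3 (chr17:57203970-57228136, minus strand), the central component, gave the smallest p of all complement genes. It was 535, 444, 472 and 459 in control and 1141, 1341, 1184 and 1274 in knockout joints. The groups were narrow and far apart, with means of 478 ± 40.2 and 1235 ± 89.8 (SD, n = 4), a log2 difference of 1.37 ± 0.09 (SE, limma adjusted p = 0.000554, exact permutation p = 0.0286). Leaving out any library left the difference of C3 between 1.33 and 1.43. C2 (chr17:34862604-34898265, minus strand), the protease subunit of the C3 convertase, was low but also without overlap, at 18.4, 15.1, 22.4 and 17.5 in control and 75.8, 65.9, 56.5 and 50.2 in knockout joints (1.70 ± 0.23, SE, limma adjusted p = 0.00398). The annotation places Gm20547 on the same strand across C2 and Cfb, so that some reads of these genes could have been assigned elsewhere or dropped.

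Knockout replicate 3 had 96% of the group mean in C3 but 61% in C1ra, 67% in C1s1, 55% in Colec12 and 63% in Serping1. C4b (chr17:34728380-34743882, minus strand), the C4 gene, had 1181, 519, 1081 and 760.2 in control and 1120, 2265, 632 and 1483 in knockout joints. Its spread was wide and the groups overlapped, with a difference of 0.56 that did not pass (95% interval -0.27 to 1.39, limma adjusted p = 0.298). C4a, a close copy to which C4b reads may be assigned, had only 3.26 to 28.2. Within single joints the ratio of C3 to C4b counts ran from 0.44 to 0.86 in control and 0.59 to 1.87 in knockout joints.

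The alternative route showed no called gene. Cfd (chr10:79890853-79892655, plus strand) encodes factor D, known as adipsin because fat cells secrete it, and per kb of exons it was the most abundant complement gene of the control joints. It was 1221, 382, 1208 and 689 in control and 1092, 1207, 869 and 1131 in knockout joints. Control replicate 2 was the lowest of the 8, and the difference of 0.43 did not pass (95% interval -0.29 to 1.16, limma adjusted p = 0.358). The 8 fat cell markers, 88.6% of whose sum was Car3, which muscle also makes, summed to 47267 to 67879 in control and 21916 to 45440 in knockout joints. Cfp (chrX:20925454-20931555, minus strand), the gene of properdin, was 172, 106, 107 and 116 in control and 218, 158, 165 and 187 in knockout joints (0.55 ± 0.18, SE, limma adjusted p = 0.0544). It overlapped through control replicate 1 alone, and passed without that library (0.71, limma adjusted p = 0.0179) and with DESeq2 (DESeq2 adjusted p = 0.038). Cfb, factor B, held only 21 reads over all libraries, with 1.08, 0, 1.87 and 1.10 in control and 2.99, 6.84, 3.26 and 2.64 in knockout joints. The values do not overlap but rest on single reads and were not tested.

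Of the terminal components that build the membrane pore, 2 were tested and 0 passed. C6 held 31 reads in all, with a highest value of 6.98, and was not tested. C7 (chr15:4988762-5063740, minus strand) was erratic in both groups, at 8.65, 0, 63.6 and 90.9 in control and 0.997, 77.8, 12 and 2.64 in knockout joints (log2 difference -0.74 ± 1.51, SE, limma adjusted p = 0.753). High and low joints occurred under both labels. C8g, the gamma chain of C8, was 29.9 to 39.4 in control and 34.2 to 45.7 in knockout joints (0.10, 95% interval -0.37 to 0.57, limma adjusted p = 0.764). C8a, C8b and C9 had no row in the table used here.

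Among the receptors, that of the C3a peptide rose. C3ar1 (chr6:122847138-122856161, minus strand), a G protein-coupled receptor of myeloid cells, was 54.1, 41.4, 128 and 117 in control and 191, 205, 295 and 290.5 in knockout joints. The groups did not overlap, although control replicates 3 and 4 were more than double replicates 1 and 2 (1.65 ± 0.35, SE, limma adjusted p = 0.0121, exact permutation p = 0.0286). Its call held in each of the 18 settings. C5ar1, the main C5a receptor of neutrophils and macrophages, was 44.3, 33.3, 63.6 and 84.3 in control and 48.9, 114, 102 and 130.3 in knockout joints (0.79, 95% interval -0.01 to 1.6, limma adjusted p = 0.134). Knockout replicate 1 alone lay among the controls, and C5ar1 passed without it (1.10, limma adjusted p = 0.0426). Whether C3ar1 and C5ar1 differ in their change was not tested.

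The second C5a receptor, C5ar2, reached 22 at most and was not tested, nor was Cr2, the C3d receptor of B cells and follicular dendritic cells, with at most 9.97. Cd93, once described as a C1q receptor and now known mainly from endothelium, was 698, 609, 862 and 536 in control and 439.8, 704, 820 and 639.9 in knockout joints (-0.07, 95% interval -0.51 to 0.38, limma adjusted p = 0.833). Its highest knockout joint was replicate 3 and its lowest replicate 1, as for the summed endothelial markers, which ran from 5818 to 7499 in control and 4791 to 9446 in knockout joints with 0 of 10 called. Per 100 macrophage marker reads, C3ar1 was 1.6 to 2.50 in control and 2.09 to 4.27 in knockout joints.

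Of the regulators only Serping1 passed. Serping1 (chr2:84765387-84775444, minus strand) encodes C1 inhibitor, which removes C1r and C1s from C1 and blocks the MASP proteases. It was 1260, 910.5, 2100.2 and 1294 in control and 2708, 3291, 1680.2 and 2953 in knockout joints, with means of 1391 ± 503 and 2658 ± 694 (SD, n = 4). Control replicate 3 lay above knockout replicate 3, and the other knockout joints above all controls (0.96 ± 0.26, SE, limma adjusted p = 0.028, exact permutation p = 0.0571). The call was lost without control replicate 1 (limma adjusted p = 0.0562), 2 (0.0742) or 4 (0.0634) and without knockout replicate 1 (0.0623), 2 (0.0737) or 4 (0.0795).

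The membrane-bound inhibitors of host cells did not pass. Cd55, which dissociates C3 convertases, was 873, 1117, 1194 and 1232 in control and 869, 1122, 753 and 1112 in knockout joints (-0.20, 95% interval -0.55 to 0.14, limma adjusted p = 0.363). Cd59a, which blocks the membrane pore, was 398 to 502 in control and 346 to 452 in knockout joints (-0.22, interval -0.49 to 0.06, limma adjusted p = 0.219). Cr1l, the rodent inhibitor Crry, was 464 to 553 and 389 to 527 (-0.16, interval -0.41 to 0.08, limma adjusted p = 0.298). These 3 intervals end below 0.2, which leaves out a rise of the size seen in C1q or C3, while the groups overlap throughout. Cd46, which in mice is largely confined to the testis, was low at 27.0 to 65.6 in control and 44.9 to 67.8 in knockout joints (0.20, limma adjusted p = 0.639).

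Clu, whose product clusterin binds the terminal complex in fluid, was among the most abundant complement genes, at 1470 to 2316 in control and 1638 to 2136 in knockout joints (0.18, 95% interval -0.15 to 0.51, limma adjusted p = 0.392). Cfi, the protease factor I, is made mainly by the liver and held 30 reads over all libraries, 4.33, 4.04, 9.35 and 5.48 in control and 2.99, 1.71, 2.17 and 0 in knockout joints. The values of Cfi do not overlap, with knockout joints lower, but rest on few reads and were not tested. Of the 32 genes with a row, 13 overlap another annotated gene, and the use of strand in counting is not given in the sources used here.

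Per kb of exons, which allows levels of different genes to be compared, Cfd (949 ± 447), Serping1 (598 ± 217), C1qa (568 ± 166), Clu (510 ± 112), C1qbp (425 ± 65.8) and C1qb (393 ± 107, SD, n = 4) led the control joints. Neighbours in this order lay within 1 SD of each other. In the knockout joints Cfd (1166 ± 158), C1qa (1255 ± 206) and Serping1 (1143 ± 299) lay within 1 SD of each other, followed by C1qb (929 ± 81.6). C3 moved from 92.9 ± 7.81 to 240.1 ± 17.5 per kb. At the low end of the genes tested, C2 was 4.74 ± 0.78 and 16 ± 2.89 and Masp1 11.9 ± 4.89 and 22.4 ± 3.05 per kb. Genes of the classical route thus had very unequal counts per kb, with C1q chains far above C2 in both groups. Some C2 reads could have been lost to the overlapping Gm20547, so the level of C2 may be understated.

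**Figure D3:**
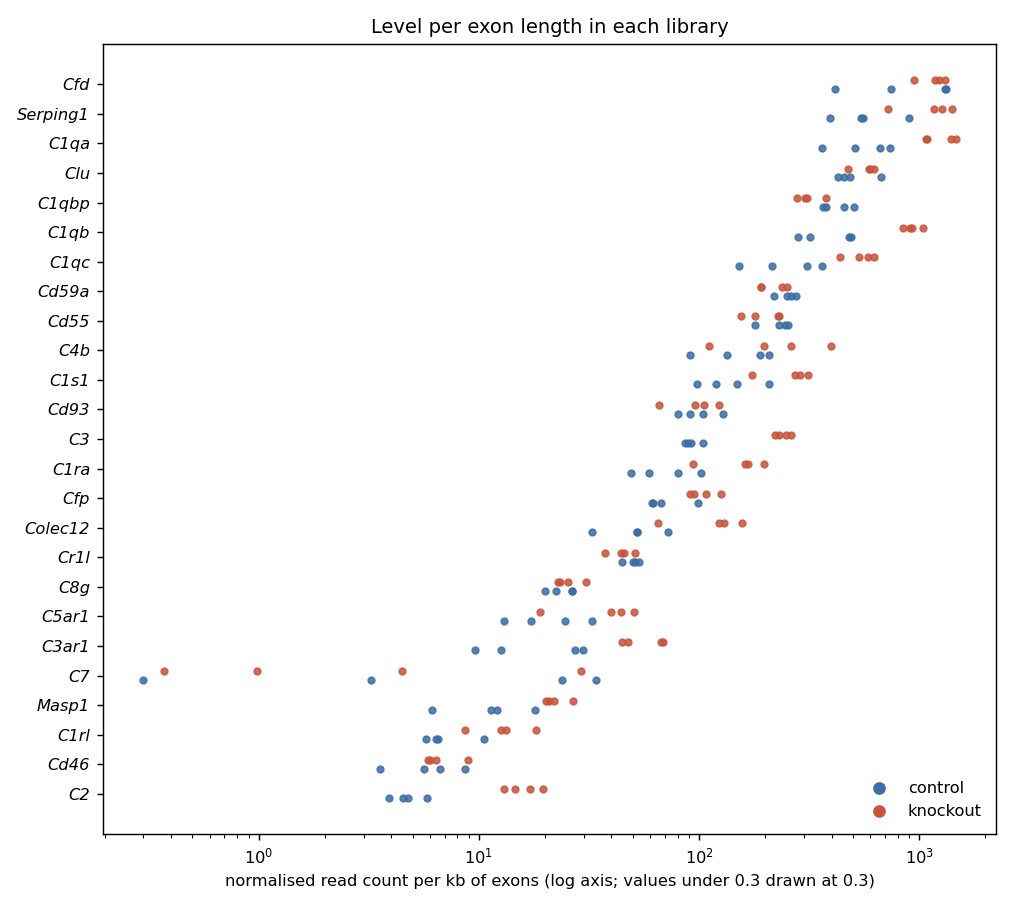
Normalised read count per kb of exons (horizontal log axis) of the 25 complement genes tested, in each control library (blue) and knockout library (red), ordered by the control mean. Control means run from about 949 per kb in Cfd to 4.74 in C2. C3, C2, C3ar1, Masp1 and the C1q chains show red points wholly to the right of the blue.

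The joints labelled knockout differed among themselves, and complement genes stood at different levels in knockout replicate 3. The genes set side by side here were picked after the values were seen, and their contrast carries no test. In that joint C1qa, C1qb, C1qc and C3ar1 stood at 111%, 112%, 107% and 120% of the knockout mean, while C1ra, C1s1, Colec12, Serping1 and C4b stood at 61%, 67%, 55%, 63% and 46%. Some other genes lay between, such as C3 at 96%, C2 at 91%, Masp1 at 90% and Clu at 83%. Others stood as high as C1q, with Cd93 at 126%, C8g at 120%, C1qbp at 119% and Cd59a at 115%. C1rl at 66% and C7 at 51% were as low as the second set. The myeloid receptor genes of a second list were spread, with Itgax at 167%, Itgb2 at 125%, Itgam at 94% and Vsig4 at 52%. The fibroblast markers were at 70%, the macrophage markers at 75%, the endothelial markers at 141% and the erythroid markers at 251% of their knockout mean in the same joint. Lyz2 gave 63% of the macrophage sum, and single macrophage markers went both ways in this joint. Lyz2 itself was 3973 against a knockout mean of 5692, and Adgre1 316 against 237. Among the 11 risen genes, knockout replicate 3 was the lowest knockout library in 5 and the highest in 2, knockout replicate 1 was the lowest in the same number, and control replicate 2 was the lowest control library in 9.

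**Figure D4:**
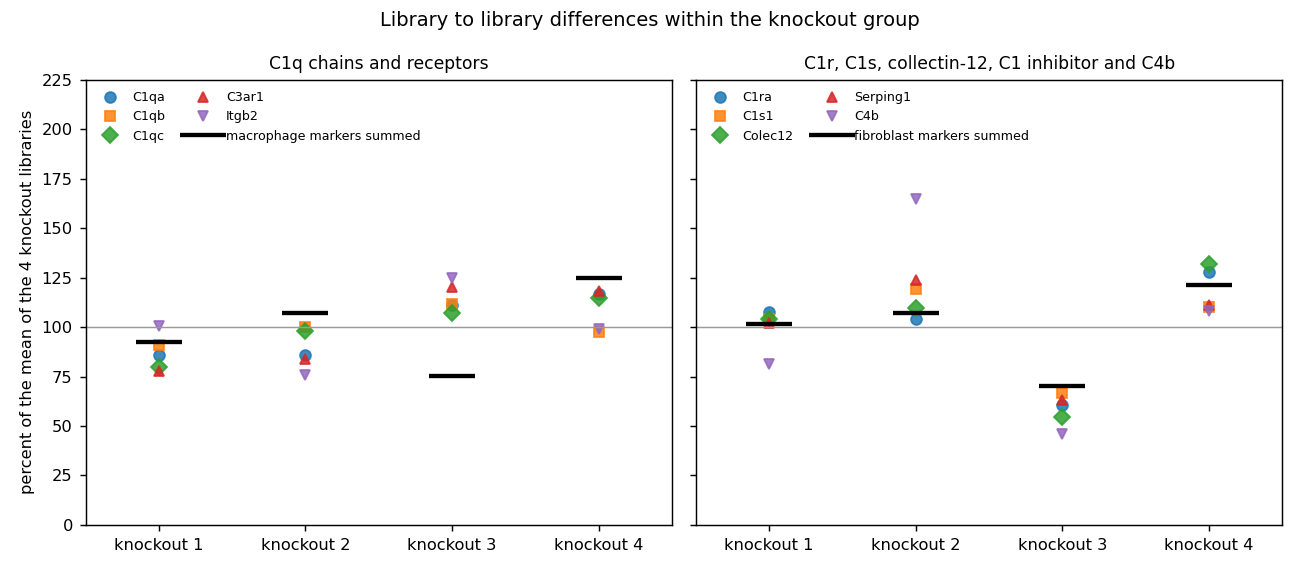
Value in each of the 4 knockout libraries as a percent of their mean (vertical axis), for C1q chains, C3ar1 and Itgb2 with the summed macrophage markers (left) and for C1ra, C1s1, Colec12, Serping1 and C4b with the summed fibroblast markers (right). In knockout replicate 3 the genes on the left lie at 107% or more and those on the right at 67% or less, with the marker sums at 75% and 70%. Genes not drawn were spread, for example Cd93 at 126%, C1qbp at 119%, C3 at 96% and C1rl at 66%. The macrophage receptor gene Vsig4 stood at 52%. Lyz2 gave 63% of the macrophage sum, and single macrophage markers went both ways in this joint.

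Against the fibroblast markers of the same joint, C1ra and C1s1 together were 0.50, 0.64, 0.49 and 0.70 per 100 marker reads in control joints and 0.43, 0.44, 0.39 and 0.40 in knockout joints. Every knockout joint was below every control joint on this ratio, although the genes themselves rose, since the marker sum rose further. Serping1 on the same scale was 0.89, 1.13, 1.08 and 1.86 in control and 0.87, 1.01, 0.78 and 0.80 in knockout joints, which overlap. Fn1 gave 26.7% of the fibroblast sum. In knockout joints Col1a1, Col1a2, Col3a1 and Fn1 averaged 58886 to 76510 each, and Dcn 13338. Single fibroblast markers differed by 0.81 (Fn1) to 3.42 (Postn), with Dcn at 1.10, near C1ra at 1.09. Dcn was 5384 in control replicate 4 and 6875 in knockout replicate 3, where C1ra and C1s1 summed to 484 and 826.5. Against Dcn alone the groups therefore overlap, so the separation depends on which markers carry the sum. The part of a change in stromal cells in these results was not tested.

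A second list held 34 further complement genes, of which 21 had a row and 14 were tested. Of these 2 rose and 0 fell, with a median difference of 0.15. That share of risen genes is near the 11.6% of all genes tested that were called higher. Both are subunits of the complement receptors CR3 and CR4 of myeloid cells. Itgb2, their shared beta chain, was 230.4, 75.7, 152 and 146 in control and 422, 317, 524 and 415 in knockout joints (1.55 ± 0.29, SE, limma adjusted p = 0.00837). Itgax, the alpha chain of CR4, was 22.7, 26.2, 31.8 and 29.6 in control and 116, 94.1, 187 and 51.9 in knockout joints (1.85 ± 0.34, SE, limma adjusted p = 0.00784). Neither gene overlapped between the groups, and both kept their call in each of the 18 settings. Itgam, the alpha chain of CR3, was 20.2 to 85.4 and 72.7 to 134 (0.97 ± 0.41, SE, limma adjusted p = 0.112).

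Vsig4, a C3b receptor of resident macrophages, was 88.7, 38.4, 114 and 153 in control and 173, 249, 115 and 354 in knockout joints (1.21 ± 0.44, SE, limma adjusted p = 0.0723), and passed without knockout replicate 3 (1.48, limma adjusted p = 0.0379) and with DESeq2 (DESeq2 adjusted p = 0.0189). The lectins Mbl1 and Mbl2 and the pentraxin Apcs, which the liver makes, had no row in the table used here.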

How the data were processed

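Poly-A RNA of 8 whole knee joints was sequenced. Per the labels' design text and the submitters' processing notes, reads were aligned to mm10 with HISAT2, counted per gene with featureCounts and normalised and filtered for DESeq2; versions, annotation, strand setting and filter are not given in the sources used here. The deposited signal is the authors' read count of a gene divided by a size factor per library. In each library 100% of values were whole multiples (tolerance 0.001) of what 1 read is worth, which gave whole reads. No 2 libraries of a group were duplicates within counting noise (12 pairs, chi-square per degree of freedom 23.5 to 59.7). Of the value columns 0 were unmapped.

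Genes that reached 10 in 4 or more libraries were tested with limma 3.58.1 (trend) on log2(value + 1), with no term for the replicate number and Benjamini-Hochberg adjustment over 14949 genes. Single genes also had the exact two-sided permutation test. Alternatives were pseudocounts 0.1 and 10, no filter and a filter at 50, TMM, quantile and non-muscle scaling, edgeR 4.0.16 and DESeq2 1.42.0 on the recovered reads, the replicate block and leaving out each library. Tests were checked on simulated data with the same spread for every gene and far fewer changed genes than were called here. That check does not give the error rates of the tests in these joints. Symbols were matched to GENCODE M21 (99.2% of rows), which gave coordinates and exon lengths.

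The members and lists were chosen with earlier results of these data known, so no p is given for the list. Every listed gene with a row is named. From the second list the genes that passed and C4a, Vsig4, Itgam, Itgax and Itgb2 are given (1 further result is not reported here), and from each marker list at most the 2 members of smallest p.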

Additional observations from a re-analysis of the deposited data

Results flagged for a closer look

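In 94 groups of 4 libraries (32 complement genes, 14 further ones and Loxl2), 9 had 1 library whose gap to its nearest neighbour exceeded Dixon's critical share of the group's range at the 95% level. Among control libraries these were Loxl2 in replicate 3 (1135, others 282 to 349), C1rl in replicate 3 (31.8), Cfp in replicate 1 (172), C5ar2 in replicate 4 (16.4) and Csmd1, a large transmembrane complement inhibitor, in replicate 1 (20.6 against 9.35 to 10.1). Among knockout libraries they were Cfb in replicate 2 (6.84), C7 in replicate 2 (77.8), Cd46 in replicate 1 (67.8) and Fcnb, a ficolin of myeloid cells, in replicate 4, which was at 0 reads while the others had 10.3 to 12. C1rl, Cfb, C7, C5ar2, Csmd1 and Fcnb are low genes in which few reads make such a gap. For independent, normally distributed values about 1 in 20 groups would be flagged. The groups here share the same libraries and some hold few reads, so that rate cannot show whether 9 is more than chance gives.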

How the results depend on the processing

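Over 18 alternative settings, C1qa, C1qb, C1qc, C2, C3 and C3ar1 kept their call in each, and the other 6 called genes (C1ra, C1s1, C1qbp, Masp1, Colec12, Serping1) lost it in at least 1. Leaving out single libraries gave 6 to 13 called complement genes, 6 to 12 of them higher and 0 to 1 lower. The fall of C1qbp was also lost without a filter, with quantile normalisation and with the non-muscle scaling, each of which called 0 genes lower. The replicate block called 7 genes, 7 higher and 0 lower. The labels do not say that the numbers pair the joints. Same-numbered joints deviated together only for number 1 (correlations 0.21, -0.12, -0.23 and -0.06). With so few joints these correlations cannot decide whether the numbers pair them. Not every joint correlated best with its own number. The block also took the call of Loxl2 (limma adjusted p = 0.0513). The median difference of the tested genes was 0.56 to 0.94 over these settings. Direction reversed only in genes that passed in no setting: C7 without control replicate 4 (0.12) and without knockout replicate 1 (0.00), with a lowest value of -2.05 and highest of 0.12; C8g under quantile normalisation (-0.16); Cd93 under the non-muscle scaling (0.082) and without control replicate 3 (0.057) and without knockout replicate 1 (0.11), over a range of -0.19 to 0.11; and Cd46 under quantile normalisation (-0.048) and without control replicate 1 (-0.030), over -0.048 to 0.39. The cause of these changes was not tested. Over all genes, 3167 were called without a filter, 2018 with the block and 1751 without knockout replicate 4, against 3461. Depth limits Cfb, C6, Cfi, Cr2, Masp2, Colec11 and C5ar2, which held 21 to 91 reads over all libraries.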
